A study of Arabidopsis thaliana with 6 samples.

Results

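RNA recovered with an anti-Flag antibody from the ASI1 line was compared directly with RNA recovered with the same antibody from wild type (WT), by RNA immunoprecipitation and sequencing (RIP-seq) in Arabidopsis thaliana. The contrast set ASI1 RIP replicates 1 and 2 against WT RIP replicates 1 and 2, which are 4 of the 6 libraries of the series, over every gene that the deposited tables of both genotypes listed. There were 2319 such genes outside ribosomal RNA (rRNA), of 6351 listed in either table; the ASI1 table alone listed 1697 genes and the WT table alone 2331. A gene missing from one table had no value there and was not compared, so RNAs that were recovered in one genotype and fell below the listing limit of the other are outside these counts.

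All 4 libraries came from whole seedlings of the Col-0 ecotype at 14 d of age, grown on 1% sucrose at 22 °C under 16 h light and 8 h dark, with 0.5% formaldehyde as crosslinker. The labels give the genotype of the tested libraries as ASI1 and that of the others as WT. The antibody and the group names imply a Flag tag on ASI1 in the first line and none in WT, which no label states; the transgene's promoter and the number of lines are likewise not stated. Whether the replicates were separate cultures is not labelled either, and p-values then cover only the spread between these libraries, which may be technical.

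ASI1 binds RNA and carries a bromo-adjacent homology (BAH) domain, a module known for binding modified histones. In Arabidopsis it acts with EDM2, a PHD-finger protein, and with the bridging protein AIPP1 on genes that carry heterochromatin inside an intron, where loss of the complex shifts transcripts towards polyadenylation sites within that intron. Its best studied targets are IBM1, which encodes a histone H3K9 demethylase, and RPP7, a disease resistance gene whose intron holds a transposon-derived insertion.

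The insertion in RPP7 (AT1G58602, TAIR10.1 chr1:21746354-21766048, forward strand, 9 exons, longest intron 7384 bases) is listed in the tables as a gene of its own, the pseudogene AT1G58561 (chr1:21748675-21753246, forward strand, 1 exon). Its last 287 bases match a stretch that ends 200 bases before its start, also inside the RPP7 intron. Both copies are printed because reads from either of them can be assigned to AT1G58561. The capitals mark the 6 bases present in one copy and missing from the other; no other base differs.
end of AT1G58561 (chr1:21752960-21753246): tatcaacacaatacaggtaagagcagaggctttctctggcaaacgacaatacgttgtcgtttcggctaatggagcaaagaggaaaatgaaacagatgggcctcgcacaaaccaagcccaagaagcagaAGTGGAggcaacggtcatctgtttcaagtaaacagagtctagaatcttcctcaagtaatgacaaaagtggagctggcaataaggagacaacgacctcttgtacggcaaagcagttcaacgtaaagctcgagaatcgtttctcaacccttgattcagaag
copy before AT1G58561 (chr1:21748194-21748474): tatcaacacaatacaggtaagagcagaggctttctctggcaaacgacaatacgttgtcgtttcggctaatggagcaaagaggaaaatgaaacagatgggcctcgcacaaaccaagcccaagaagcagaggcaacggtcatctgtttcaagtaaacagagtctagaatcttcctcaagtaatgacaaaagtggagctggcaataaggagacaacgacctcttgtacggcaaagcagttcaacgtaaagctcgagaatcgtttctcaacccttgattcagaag
AT1G58561 and RPP7 lie on the same strand, so a read from an unspliced RPP7 transcript and one from the pseudogene cannot be told apart there.

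Both ASI1 RIP libraries were deeper than both WT RIP libraries, and the WT RIP libraries also differed widely from each other in depth. Outside rRNA, ASI1 RIP held 448561 and 362058 counts, against 23304 and 103549 in WT RIP; these were 17.5%, 20.1%, 19.4% and 19.7% of each library's counts. Levels are given as CPM with a library's counts outside rRNA as the total (CPM outside rRNA), and they are not divided by gene length. A single gene with 3 counts, the most that a listed 0 can hide by counting error, stood at 6.69 and 8.29 CPM outside rRNA in ASI1 RIP, against 129 and 29 in WT RIP. By counting error alone, a 0 in WT RIP 1 thus allows a level of up to 129 CPM outside rRNA. Replicates differed by far more than counting error: RPS2, described below, had 6555 CPM outside rRNA in one WT RIP library and 0 in the other. A listed 0 therefore does not bound the level in that genotype, and the 3-count level used below is a mark for counting error only.

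More of the 2319 genes were covered in ASI1 RIP than in WT RIP. Genes with at least 20 counts numbered 1717 and 1445 in ASI1 RIP and 131 and 588 in WT RIP. Between 0 and 6 counts lay 110 and 213 genes in the ASI1 RIP libraries, against 1230 and 1259 in WT RIP. With each library thinned to the 23304 counts of WT RIP 1, the expected numbers were 1728 and 1504 genes above 0 in ASI1 RIP, against 1455 and 1221 in WT RIP; genes with at least 20 counts would number 159 and 163 in ASI1 RIP, and 134 and 310 in WT RIP. After this thinning the numbers of genes with at least 20 counts overlapped between the genotypes, whereas the numbers above 0 were higher in both ASI1 RIP libraries. No gene was at 0 in both RIP libraries of a genotype, so the numbers above 0 depend on which genes were listed. Thinning takes genes with few counts to 0 first, and WT RIP held more of these. The numbers above 0 are therefore not a comparison of the genotypes freed of depth.

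**Figure D1:**
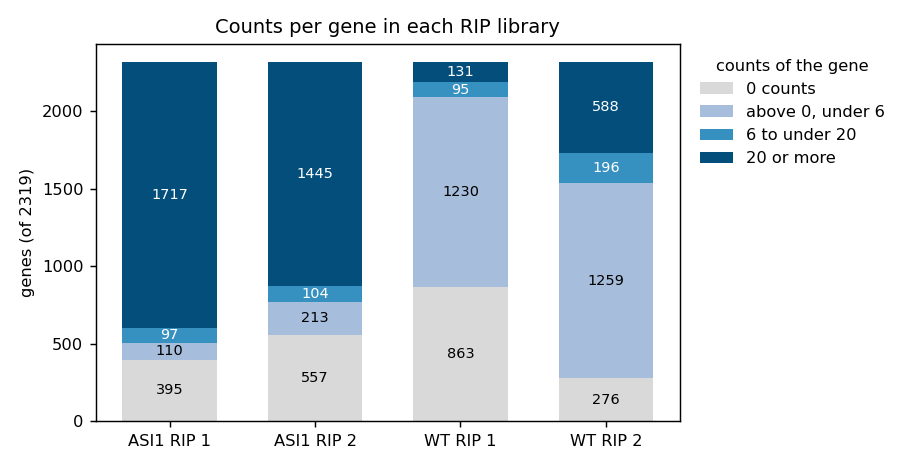
Number of genes (y axis, of 2319 outside rRNA listed for both genotypes) by the gene's count in each RIP library (x axis; ASI1 RIP 1 and 2, then WT RIP 1 and 2). The darkest segment, genes with at least 20 counts, held 1717 and 1445 genes in ASI1 RIP and 131 and 588 in WT RIP, and the libraries were not brought to a common depth.

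Replicates of one genotype shared few of their levels. Across the 2319 genes Spearman's rho was 0.104 between the ASI1 RIP replicates and 0.177 between the WT RIP replicates. It was between 0.0851 and 0.201 for the 4 pairs of an ASI1 RIP with a WT RIP library. Over genes above 0 in both libraries of a pair, rho was 0.320 for ASI1 RIP and 0.345 for WT RIP. For the 4 mixed pairs it was then 0.118 to 0.223, below both replicate pairs. No gene was at 0 in both RIP libraries of a genotype, and the part of this in the rho over all genes was not tested. These are correlations across genes, which are not independent replicates. Of the genes with at least 20 counts, 935 were common to both ASI1 RIP libraries (54.5% of those of replicate 1 and 64.7% of those of replicate 2) and 56 to both WT RIP libraries (42.7% and 9.52%). Counts of covered genes were of a like size in all libraries, with medians of 109 and 101 in ASI1 RIP and 87.3 and 91.9 in WT RIP, so that a covered gene in WT RIP 1 stood at a median of 3745 CPM outside rRNA, against 242 and 280.0 in the ASI1 RIP libraries and 887 in WT RIP 2.

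No gene passed the main test. Of 1525 genes kept by the filter on low counts, edgeR's quasi-likelihood test called 0 higher (0.0%) and 0 lower (0.0%) in ASI1 RIP at a Benjamini-Hochberg adjusted p under 0.05 and a log2 fold change of at least 1. The smallest adjusted p was 0.644, and 69 genes had an unadjusted p under 0.05, of which 59 were higher (3.87%) and 10 lower (0.656%). That balance turned with the scaling: with trimmed-mean scaling (TMM) on the counts outside rRNA, 4 were higher and 21 lower in edgeR at an unadjusted p under 0.05. The fit had 2 residual degrees of freedom and a common dispersion of 2.00, which is a coefficient of variation of 1.41 between replicates. DESeq2 with its own size factors gave an adjusted p to 195 genes and called 0 higher (0.0%) and 4 lower (2.05%), with 28 higher and 67 lower at an unadjusted p under 0.05. With size factors from the counts outside rRNA it called 0 in either direction, and gave an unadjusted p under 0.05 to 149 genes, 123 higher and 26 lower. With this spread, 0 calls do not show that the genotypes were alike. An exact permutation test of one gene cannot go below 0.333 (two-sided) with 2 libraries against 2.

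The 4 genes called lower by DESeq2 encode the small GTPase ARFA1E, which recruits vesicle coats at the Golgi, the ribosomal proteins RPS15 and RPS10B, and RPE, the epimerase of the Calvin cycle and the pentose phosphate pathway. In DESeq2 the log2 fold change of ARFA1E was -9.03 (SE 2.09, adjusted p = 0.00304) and that of RPS15 -8.50 (SE 2.29, adjusted p = 0.0153). That of RPE was -8.21 (SE 2.23, adjusted p = 0.0153) and that of RPS10B -7.80 (SE 2.36, adjusted p = 0.0456). For RPS10B and RPE the difference rests largely on WT RIP 1. RPS10B had 25.1 and 5.22 counts in ASI1 RIP, against 163 and 2.1 in WT RIP, and its fold in edgeR turned to 0.84 without WT RIP 1. RPE had 9.41 and 3.13 counts in ASI1 RIP, against 88.3 and 7.35 in WT RIP. For ARFA1E and RPS15 both WT RIP libraries were high, as described below.

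Counted by library, genes whose ASI1 RIP values both lay above both WT RIP values were more frequent than the reverse. There were 604 such genes (26.0% of 2319), against 110 (4.74%) whose ASI1 RIP values both lay below both WT RIP values. Depth enters these counts, since a gene with few or no counts in WT falls below any covered gene of ASI1. Where the lower ASI1 RIP library also had to exceed the level of 3 counts in both WT RIP libraries, 480 genes were left (20.7%). The mirrored limit for genes lower in ASI1 RIP was only 8.29 CPM outside rRNA, against 129 for those higher. In WT RIP 2, 1.05 counts already stood at 10.1. All 110 genes (4.74%) passed that lower limit, which is therefore no check of depth. With at least 20 counts in both libraries of one genotype and fewer than 20 in both of the other, there were 581 genes for ASI1 RIP (25.1%) and 2 for WT RIP (0.0862%), which were RPS15 and ARFA1E. The part of depth in these 604 and 581 genes was not tested.

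The direction in which the fitted folds leaned depended on the scaling. The median log2 fold change of the 1525 genes was 0.91 when libraries were scaled to their counts outside rRNA, and 956 genes (62.7%) lay above 0. With TMM scaling on the same counts the median was 0.31 and 53.3% lay above 0, and with DESeq2's own size factors it was -0.14 and 48.4%. The medians of gene groups below are therefore to be read beside 0.91, the median of all genes under the same scaling.

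The 3 genes of smallest p in edgeR among those apart towards ASI1 RIP with at least 20 counts in both of its libraries were a splicing factor gene and a pair of pseudogenes. AT1G60200 (TAIR10.1 chr1:22200694-22205400, reverse strand, 6 exons) encodes a splicing factor with a PWI domain and an RNA recognition motif. It had 6013 and 4373 CPM outside rRNA in ASI1 RIP, against 0 and 60.8 in WT RIP, from 2697 and 1583 counts against 0 and 6.30. Both ASI1 RIP libraries lay far above both WT RIP libraries and above either input (1209 in ASI1, 769 in WT). The log2 fold change was 7.23 (SE 2.23, unadjusted p = 0.00164, adjusted p = 0.644, edgeR), the smallest p of all genes, and the ratio of pooled shares was 112 (95% interval 51.2 to 304, counting error only).

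Both listed genes of the RPP7 locus were higher in both ASI1 RIP libraries. The intron pseudogene AT1G58561 had 3188 and 3372 CPM outside rRNA in ASI1 RIP, against 0 and 10.1 in WT RIP, where 10.1 stood for 1.05 counts. RPP7 itself (AT1G58602) had 1503 and 718 CPM outside rRNA in ASI1 RIP, against 0 and 10.1 in WT RIP. For both genes the ASI1 RIP libraries did not overlap the WT RIP libraries. Stretches of RPP7 match 4 other genes, the longest over 1255 bases at 93.2% identity, so the division of its reads is uncertain. The log2 fold changes in edgeR were 8.81 (SE 3.07, adjusted p = 0.644) for AT1G58561 and 7.25 (SE 3.67, adjusted p = 0.644) for AT1G58602. The ratio of pooled shares was 415 for AT1G58561 (interval 74.4 to 16392, counting error only). The inputs, which are outside the contrast, differed too, at 1166 in ASI1 against 267 in WT for AT1G58561 and 864 against 351 for AT1G58602. The part of this difference in starting RNA in the difference between the RIP libraries was not tested.

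IBM1, the other well known target, had 0 and 291 CPM outside rRNA in ASI1 RIP, against 0 and 10.1 in WT RIP. The groups overlapped, because ASI1 RIP 1 had no count, and the gene did not pass the filter on low counts. Of the partners of ASI1, EDM2 had 785 and 219 CPM outside rRNA in ASI1 RIP, against 89.2 and 0 in WT RIP (log2 fold change 3.79, SE 2.82, adjusted p = 0.658, edgeR). AT4G11560, the BAH-domain partner AIPP3, had 219 and 202 in ASI1 RIP, against 44.6 and 10.1 in WT RIP (3.23, SE 2.37, adjusted p = 0.656, edgeR). Both partners were higher in both ASI1 RIP libraries, but each WT RIP value stood for 2.08 counts or fewer. The transcripts of ASI1 and CPL2, and the other 2 genes of the target list (AT3G05410 and AT1G11270), were not listed for both genotypes and were not analysed here.

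AT4G16870, a pseudogene on chromosome 4 (chr4:9483955-9488397, reverse strand, 1 exon), was also apart in this direction. It had 5516 and 9296 CPM outside rRNA in ASI1 RIP, against 0 and 963 in WT RIP (log2 fold change 3.91, SE 1.53, adjusted p = 0.644, edgeR). WT RIP 2 held 99.7 counts of it, so the gene was measured there and lay below both ASI1 RIP libraries; the ratio of pooled shares was 9.14 (interval 7.50 to 11.3, counting error only). Its inputs stood at 3196 in ASI1 and 552 in WT.

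The remaining genes of smallest p in this direction were protein-coding and had only 0 and 1.05 counts in WT RIP. They were AT5G47480 (an RGPR-like protein of the Sec16 kind, which organises sites of export from the endoplasmic reticulum), ACX2 (a peroxisomal acyl-CoA oxidase of fatty acid beta-oxidation), AT1G80450 (a VQ motif protein), AT3G26890, AT1G10410, ATL2 (a RING-type ubiquitin ligase induced by elicitors) and AT3G24180 (a beta-glucosidase family protein). Their ASI1 RIP levels ran from 66.3 to 559 CPM outside rRNA. Their fitted log2 fold changes lay between 5.31 and 5.44, all at an adjusted p of 0.644 (edgeR); the shared 0 and 1.05 counts of WT RIP set a narrow range of fitted folds. AT3G24180 in ASI1 RIP 2 lay below the level that a 0 in WT RIP 1 allows by counting error.

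**Figure D2:**
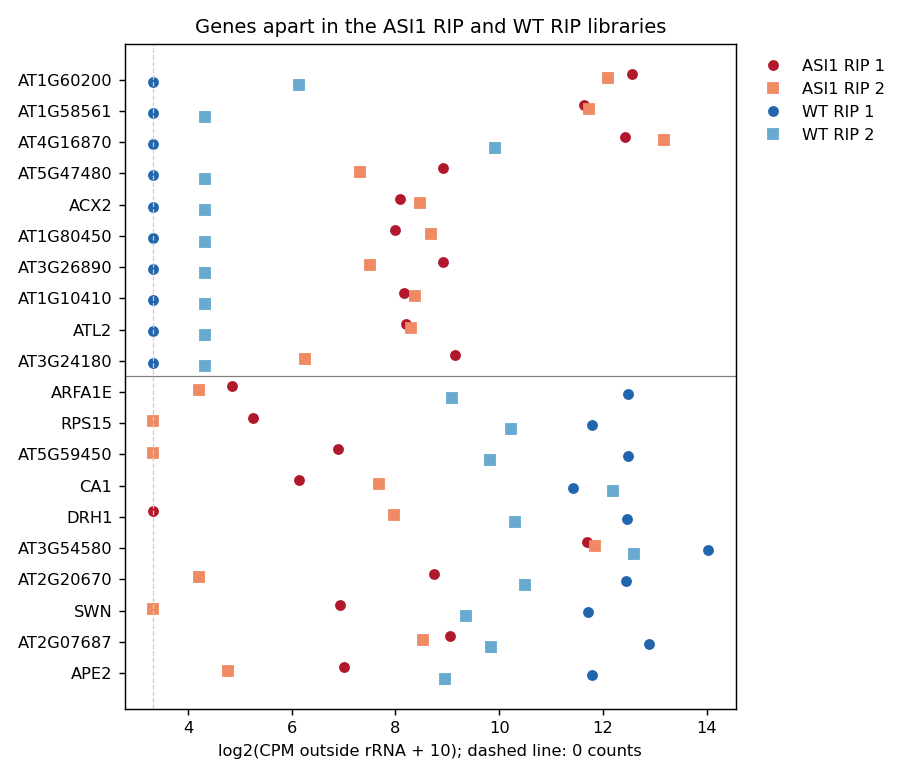
Log2 of CPM outside rRNA plus 10 (x axis) in each RIP library, for the 10 genes of smallest edgeR p per direction. They were chosen among genes higher (upper block) or lower (lower block) in both ASI1 RIP libraries than in both WT RIP libraries. Each also had at least 20 counts in both libraries of the higher genotype. Red symbols are ASI1 RIP 1 and 2 and blue symbols WT RIP 1 and 2; WT RIP 1 stood at 0 for all 10 upper genes, and it was the highest library for 9 of the 10 lower genes.

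Genes lower in ASI1 RIP than in WT RIP were fewer. Those named here for smallest p had at least 20 counts in both WT RIP libraries, and most stood highest in WT RIP 1. That limit stood at 858 CPM outside rRNA in WT RIP 1, against 193 in WT RIP 2. Over all 110 genes apart in this direction, the median level was 393 CPM outside rRNA in WT RIP 1 and 791 in WT RIP 2. ARFA1E (chr3:23051544-23053893, forward strand, 7 exons) had 18.6 and 8.65 CPM outside rRNA in ASI1 RIP, against 5752 and 537 in WT RIP, from 8.36 and 3.13 counts against 134 and 55.6. RPS15 had 28.0 and 0 CPM outside rRNA in ASI1 RIP, against 3523 and 1196 in WT RIP. Both genes were low in both ASI1 RIP libraries, which were the deeper ones. The log2 fold changes in edgeR were -7.85 (SE 2.89, adjusted p = 0.644) and -7.28 (SE 3.14, adjusted p = 0.644), and the ratios of pooled shares were 0.00906 (interval 0.00445 to 0.0166) and 0.00988 (interval 0.00517 to 0.0173), counting error only. Part of RPS15 (253 bases) is 90.5% identical to another gene, so the division of its reads is uncertain.

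CA1, the main carbonic anhydrase of the chloroplast, was the one gene of this group in which WT RIP 2 exceeded WT RIP 1. It had 60.6 and 196 CPM outside rRNA in ASI1 RIP, against 2719.9 and 4689 in WT RIP (log2 fold change -4.84, SE 2.30, adjusted p = 0.644, edgeR). Its inputs stood the other way, at 1296 in ASI1 against 501 in WT. AT5G59450, a GRAS family transcription factor, had 109.5 and 0 CPM outside rRNA in ASI1 RIP, against 5707 and 892 in WT RIP. DRH1, a DEAD-box RNA helicase, had 0 and 242 in ASI1 RIP, against 5663 and 1247 in WT RIP. For both, one ASI1 RIP library had no count, and the other still lay below both WT RIP libraries.

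SWN, a histone H3K27 methyltransferase of the Polycomb group, had 112 and 0 CPM outside rRNA in ASI1 RIP, against 3344 and 649 in WT RIP. APE2, the triose phosphate translocator of the chloroplast envelope, had 119 and 17.3 in ASI1 RIP, against 3523 and 487 in WT RIP. AT2G20670 had 419 and 8.65 in ASI1 RIP, against 5529 and 1439.6 in WT RIP. All 3 genes differed widely between the replicates of either genotype, and the adjusted p was 0.644 for all 3 (edgeR), with log2 fold changes between -5.14 (SE 2.98) for SWN and -4.02 (SE 2.28) for AT2G20670. AT2G07687, annotated as cytochrome c oxidase subunit III, had 517 and 358 CPM outside rRNA in ASI1 RIP, against 7580.1 and 902 in WT RIP. All 998 bases of that gene are identical (100%) to a stretch of the mitochondrial genome, so the origin of its reads is uncertain.

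Of all genes, 8 were picked for the highest level in their lowest RIP library, a choice by which they are abundant in both genotypes; they are described with their WT RIP levels as the background of the precipitation. AT2G15880, a leucine-rich repeat extensin gene, had the highest level in every RIP library, at 23664 and 28019 CPM outside rRNA in ASI1 RIP, against 27868 and 23216 in WT RIP. The groups overlapped and the log2 fold change was 0.02 (SE 0.31), with the smallest edgeR SE of the genes named here. DESeq2 with size factors from the counts outside rRNA gave AT2G15880 an SE of 1.80. LRX3, which like AT2G15880 encodes a cell wall protein, had 5358 and 6747 in ASI1 RIP, against 8739 and 4116 in WT RIP (log2 fold change -0.09, SE 0.96). AT1G15405, a noncoding RNA with a 92.8% identical copy elsewhere, had 6509 and 4811 in ASI1 RIP, against 7805 and 5761 in WT RIP (-0.26, SE 0.96), and PEN3, a plasma membrane ABC transporter, had 2547 and 4243 in ASI1 RIP, against 5172 and 2697 in WT RIP (-0.21, SE 1.37).

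Of the other abundant RNAs, 4 had both ASI1 RIP libraries below both WT RIP libraries. U1.5, a U1 small nuclear RNA, had 5736 and 6314 CPM outside rRNA in ASI1 RIP, against 12724 and 6918 in WT RIP (log2 fold change -0.71, SE 0.80, adjusted p = 0.785, edgeR). U1 RNA defines the 5′ splice site and is known to restrain premature polyadenylation in animal cells. The RNA as annotated (AT1G08115, TAIR10.1 chr1:2538074-2538238, reverse strand, 165 bases) is printed because it was among the highest RNAs of all 4 libraries, with the stretch that pairs with the 5′ splice site in capitals.
U1.5: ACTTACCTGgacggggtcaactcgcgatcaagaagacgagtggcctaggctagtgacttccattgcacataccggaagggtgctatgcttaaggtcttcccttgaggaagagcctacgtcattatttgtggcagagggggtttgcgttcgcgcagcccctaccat
The cytokinin response regulator gene RR3 had 4228 and 3720.1 in ASI1 RIP, against 6956 and 6416 in WT RIP (-0.75, SE 1.07). Its inputs stood far higher, at 54210 in ASI1 and 33776 in WT. Stretches of RR3 match other places, the longest over 572 bases at 91.4% identity, so the origin of its reads is uncertain. AT4G18670, a leucine-rich repeat extensin gene, had 3396 and 2599, against 4816 and 5089 (-0.72, SE 1.30). The extensin-like gene AT3G54580 had 3291 and 3666 in ASI1 RIP, against 16632 and 6164 in WT RIP (-1.71, SE 0.87, adjusted p = 0.644, edgeR). The folds of U1.5, RR3 and AT4G18670 were smaller than their standard errors, and that of AT3G54580 missed the threshold.

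Gene lists were drawn up from product names and textbook membership, with earlier results of these data known. They are described here by their values without a test of the list. Each count of genes apart is to be read against 26.0% higher and 4.74% lower over all 2319 genes. No member of any list was called by edgeR (0 of 1525 tested genes).

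Transcripts of splicing factors had higher sums in both ASI1 RIP libraries than in both WT RIP libraries. SR proteins and splicing regulators, which bind exons and introns and steer the choice of splice sites, summed to 12683 and 11062 CPM outside rRNA in ASI1 RIP, against 268 and 4613 in WT RIP. Of the 13 genes listed for both genotypes, 6 were apart towards ASI1 RIP (46.2%) and 0 towards WT RIP; 9 of the 11 tested had a fold above 0 and the median log2 fold change was 1.91, against 0.91 for all genes. AT1G60200 had the largest value of the list in both ASI1 RIP libraries. AT4G36980, a serine/arginine-rich protein named for binding a CLK kinase, had 1683 and 2065 CPM outside rRNA in ASI1 RIP, against 44.6 and 10.1 in WT RIP (log2 fold change 6.34, SE 3.27, adjusted p = 0.644, edgeR). The SR gene RS41, chosen after its values were seen, had 1046 and 753 in ASI1 RIP, against 0 and 10.1 in WT RIP. Members annotated as serine/arginine repetitive matrix-like overlapped between the genotypes. AT4G32020 had 1179 and 2553 in ASI1 RIP, against 134 and 1419 in WT RIP, and AT2G25250 had 829.7 and 251 in ASI1 RIP, against 0 and 1835 in WT RIP. The list's median stayed above that of all genes with TMM scaling (1.10 against 0.31) and without WT RIP 1 (3.41 against 2.58). With the lower ASI1 RIP library above the level of 3 counts in both WT RIP libraries, 4 of the 13 remained apart (30.8%, against 20.7% of all genes).

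Genes of the core spliceosome, the machine that removes introns, leaned the same way. They summed to 5164 and 6002 CPM outside rRNA in ASI1 RIP, against 2452 and 406 in WT RIP, and 7 of 13 were apart towards ASI1 RIP (53.8%), all 7 also beyond the level of 3 counts. The median log2 fold change of the 8 tested was 3.36. U1-70K, a protein of the U1 particle, had 918 and 1523 in ASI1 RIP, against 0 and 50.7 in WT RIP (log2 fold change 5.38, SE 3.22, adjusted p = 0.644, edgeR). ATU2AF65A, which recognises the 3′ splice site, had 869 and 1408 in ASI1 RIP, against 134 and 60.8 in WT RIP, and SUS2, the Prp8 homologue at the centre of the spliceosome, had 1130.3 and 159 in ASI1 RIP, against 134 and 101 in WT RIP. AT3G49601 overlapped, with 119 and 0 in ASI1 RIP and 2007 and 0 in WT RIP. The summed inputs were nearly equal for the core spliceosome, at 6157 in ASI1 and 6418 in WT, but its single genes differed in both directions. U1-70K had 691 in the ASI1 input against 3125 in the WT input, ATU2AF65A 432 against 769, and SUS2 1512 against 485. For the SR list the summed inputs were 3455 in ASI1 and 2139 in WT.

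Pseudogenes and transposon genes had a median log2 fold change of 4.55 over 12 tested genes, above that of every other list with more than 2 tested genes. They summed to 16114 and 20200.3 CPM outside rRNA in ASI1 RIP, against 5930.3 and 3294 in WT RIP, and 8 of 15 were apart towards ASI1 RIP (53.3%) and 0 towards WT RIP. Besides AT4G16870 and AT1G58561, AT1G20390 had 2296 and 1509 in ASI1 RIP, against 89.2 and 416 in WT RIP, and AT3G43690, chosen after its values were seen, had 1619.7 and 2264 in ASI1 RIP, against 44.6 and 20.3 in WT RIP. The pseudogene AT2G07747, which has 99.6% identical copies over 961 bases elsewhere, had 0 and 709.6 in ASI1 RIP, against 3612 and 0 in WT RIP. The inputs of the list differed in the same direction, at 10196 in ASI1 and 3071 in WT, and the part of that difference in the RIP values was not tested. Reads of pseudogenes with near-identical copies could have been divided among them.

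Disease resistance genes of the NLR family, the intracellular immune receptors to which RPP7 belongs, were apart towards ASI1 RIP in 7 of 16 cases (43.8%) and towards WT RIP in 0, with a median of 3.55 over 11 tested. Their sums overlapped, at 3563 and 5831 CPM outside rRNA in ASI1 RIP, against 6911 and 1317 in WT RIP, because RPS2 alone had 6555 in WT RIP 1 with 0 in WT RIP 2, and 0 and 992 in ASI1 RIP. AT5G41740 had 761 and 429.8 in ASI1 RIP, against 89.2 and 20.3 in WT RIP (log2 fold change 3.61, SE 2.88, adjusted p = 0.673, edgeR). Part of AT5G41740 (1605 bases) is 92.3% identical to another gene, so the division of its reads is uncertain. AT1G59124, which has a 100% identical copy over 4506 bases, overlapped between the genotypes, with 272 and 415 in ASI1 RIP, against 22.3 and 586 in WT RIP. Beyond the level of 3 counts 5 of the 16 genes were apart (31.2%, against 20.7%).

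Noncoding RNAs were apart towards ASI1 RIP in 7 of 12 cases (58.3%) and towards WT RIP in 1, which was U1.5, but only 4 (33.3%) were so beyond the level of 3 counts. GUT15, a long noncoding RNA known for its short half-life and chosen after its values were seen, had 655 and 787 CPM outside rRNA in ASI1 RIP, against 0 and 10.1 in WT RIP. AT1G25098 had 638 and 1133, against 52.4 and 29.9, and near-identical copies of it exist elsewhere. Their sums were alike, at 17143 and 16399 in ASI1 RIP, against 20808 and 15319 in WT RIP, as U1.5 and AT1G15405 held most of the counts. Chromatin and DNA methylation factors, with 8 of 24 apart towards ASI1 RIP (33.3%) and 1 towards WT RIP (SWN), lay nearer the background, and CHR5, a chromatin remodeller, had 1039 and 352 in ASI1 RIP, against 44.6 and 0 in WT RIP.

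**Figure D3:**
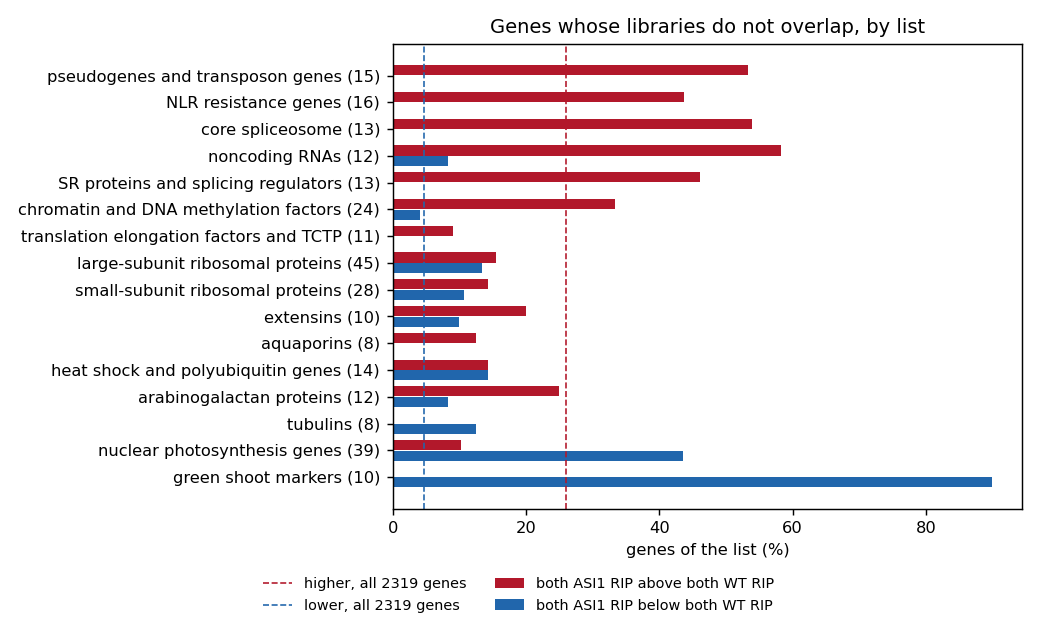
Share of each list's genes (x axis, percent; number of genes in brackets) whose ASI1 RIP libraries both lay above (red) or both below (blue) both WT RIP libraries, with dashed lines at 26.0% and 4.74% for all 2319 genes. Core spliceosome, pseudogene, noncoding RNA, SR, NLR and chromatin lists exceeded the red line, and nuclear photosynthesis genes and green shoot markers stood at 43.6% and 90% in blue.

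Nuclear photosynthesis genes, which encode the light-harvesting complexes, the photosystem subunits and the small subunit of Rubisco, lay towards WT RIP. They summed to 27429 and 15115 CPM outside rRNA in ASI1 RIP, against 42690.0 and 94004 in WT RIP. Of 39 genes, all tested, 17 were apart towards WT RIP (43.6%) and 4 towards ASI1 RIP (10.3%), 5 had a fold above 0, and the median log2 fold change was -1.99, against 0.91 for all genes. RBCS3B, a Rubisco small subunit gene, had 1588 and 1116 in ASI1 RIP, against 3037 and 8922 in WT RIP (log2 fold change -2.15, SE 1.43, adjusted p = 0.644, edgeR). RCA, the activase of Rubisco, had 1051 and 1292 in ASI1 RIP, against 1516 and 9408 in WT RIP, and PSBO1, of the oxygen-evolving complex, had 713 and 407 in ASI1 RIP, against 1338 and 4288 in WT RIP. CAB1, a chlorophyll a/b-binding protein gene, overlapped between the genotypes, at 3928 and 2463 in ASI1 RIP, against 3717 and 9077 in WT RIP. The oxygen-evolving subunit PSBP-1, chosen after its values were seen, stood the other way, at 1114 and 1465 in ASI1 RIP, against 446 and 375 in WT RIP.

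This direction held under every scaling tried (median -3.08 to -1.94). Without WT RIP 2 the median was -0.37, against 2.41 for all genes in that fit. The inputs moved with it, at 41847 in ASI1 and 83006 in WT for the photosynthesis list. The 12 green shoot markers, most of which are photosynthesis genes as well, gave 10 genes listed for both genotypes, of which 9 were apart towards WT RIP (90%); they summed to 7558 and 4268 in ASI1 RIP, against 12519 and 39606 in WT RIP, with 14713 in the ASI1 input and 32819 in the WT input. In these bulk seedling extracts, fewer green cells and less RNA per cell cannot be told apart, and the part of the inputs in the RIP difference was not tested. Of the other marker lists few genes were listed for both genotypes: 1 of 10 root markers, 1 of 4 vascular markers, 2 of 4 guard cell markers and 0 of 4 seed storage markers. PRP3, the root marker, had 489 and 0 in ASI1 RIP, against 44.6 and 0 in WT RIP, and SUC2, the phloem sucrose transporter, had 748 and 239, against 89.2 and 1166.

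Ribosomal protein genes had lower sums in both ASI1 RIP libraries than in both WT RIP libraries, though single genes were apart in both directions. The medians of both subunits lay below that of all genes, which was 0.91, or 0.31 with TMM scaling. Fewer of these genes were apart towards ASI1 RIP, and more towards WT RIP, than among all genes (26.0% and 4.74%). Small-subunit genes summed to 4172 and 4641 CPM outside rRNA in ASI1 RIP, against 20065 and 6823 in WT RIP, yet the median log2 fold change of the 20 tested was 0.17, and it was -0.69 with TMM scaling. The sum of WT RIP 1 came largely from RPS10B and AT2G31610, which had 7000.5 and 6956 there and 20.3 each in WT RIP 2. Of 28 genes 4 were apart towards ASI1 RIP (14.3%) and 3 towards WT RIP (10.7%). Large-subunit genes were alike, with 7 of 45 towards ASI1 RIP (15.6%), 6 towards WT RIP (13.3%), and a median of 0.19 that turned to -0.78 with TMM scaling; their sums were 7367 and 6897 in ASI1 RIP, against 21581 and 11334 in WT RIP, of which AT5G02450 and RPL18AA held 7134 and 6019.5 in WT RIP 1 and 81.1 and 10.1 in WT RIP 2.

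Tubulin genes summed to 1303 and 404 CPM outside rRNA in ASI1 RIP, against 5399 and 4261 in WT RIP, and 1 of 8 had a fold above 0. The members behind the WT sums changed between its libraries: TUB2 had 4325 in WT RIP 1 and 10.1 in WT RIP 2, whereas TUB4 had 44.6 and 1652. In ASI1 RIP TUB2 had 48.9 and 0, and TUB4 203 and 0. Part of TUB2 (1186 bases) is 90.7% identical to another gene, so the division of its reads is uncertain. Only 1 of the 8 tubulin genes was apart (12.5%). The median was -1.75, against 0.91 for all genes, and without WT RIP 1 it was -0.05, against 2.58. Arabinogalactan proteins of the cell wall summed to 7651 and 6762 in ASI1 RIP, against 13466 and 8410.1 in WT RIP, with 3 of 12 apart towards ASI1 RIP (25.0%) and 1 towards WT RIP (8.33%). AGP9 had 3561 and 4041 in ASI1 RIP, against 3299.6 and 1744 in WT RIP, and FLA18 had 449.8 and 346, against 4414 and 973. The arabinogalactan median of -0.80 turned to 7.49 without WT RIP 2, where 7 of 12 genes had no count in the remaining WT library. The median of all genes in that fit was 2.41.

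Extensins, the structural glycoproteins of the cell wall to which AT2G15880 and LRX3 belong, summed to 49782 and 54457 CPM outside rRNA in ASI1 RIP, against 58233 and 45812 in WT RIP. The sums overlapped, and the median log2 fold change of the 9 tested was 0.13, or -0.22 with TMM scaling. EXT3 had 9599 and 8196 in ASI1 RIP, against 223 and 6224 in WT RIP (log2 fold change 1.46, SE 1.04, adjusted p = 0.644, edgeR). Elongation factor genes summed to 4519 and 3631 in ASI1 RIP, against 3255 and 3153 in WT RIP, with 1 of 11 apart (9.09%), which was TCTP at 1261 and 1258 in ASI1 RIP, against 312 and 791 in WT RIP; the median of 0.61 turned to -0.35 with TMM scaling. Heat shock and polyubiquitin genes summed to 7575 and 8452 in ASI1 RIP, against 11727 and 11546 in WT RIP, with 2 of 14 apart in each direction (14.3%). The chaperone HSC70-1 had 1666 and 2423 in ASI1 RIP, against 4726 and 4745 in WT RIP, and UBQ10 had 2333 and 2632, against 669 and 1206. The 8 aquaporin genes overlapped in sum, at 1680.3 and 2884 in ASI1 RIP, against 803 and 5069 in WT RIP, and PIP1B had 587 and 355, against 44.6 and 3092. The 5 poly(A) factor genes had 0 apart in either direction; PAB2, which binds poly(A) tails, had 289 and 173 in ASI1 RIP, against 89.2 and 537 in WT RIP. Of 2 histone genes, HTB9 had 95.6 and 257 in ASI1 RIP, against 44.6 and 11.1 in WT RIP, and AT4G40040 had 133 and 2.88, against 44.6 and 1054.

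**Figure D4:**
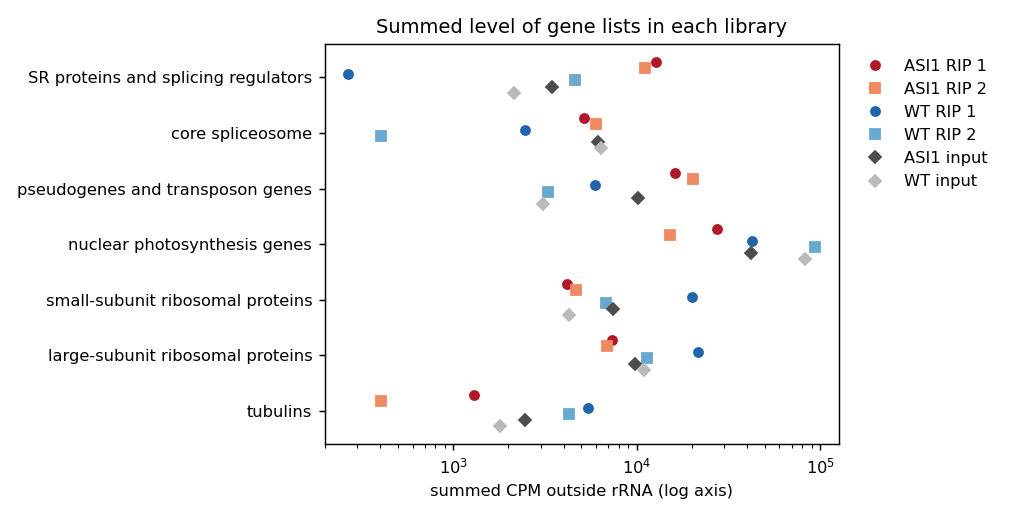
Summed level of 7 gene lists in CPM outside rRNA (x axis, log scale) in each RIP library, with the input libraries, which are outside the contrast, as diamonds. Splicing and pseudogene sums were higher in both ASI1 RIP libraries (12683 and 11062 against 268 and 4613 for SR genes), and photosynthesis, ribosomal protein and tubulin sums were lower in both.

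Longer transcripts were more often apart towards ASI1 RIP and shorter ones towards WT RIP, a weak relation across genes that was not tested. With transcript length, the log2 fold change had a Spearman's rho of 0.196 across 1503 genes, against -0.0462 for the number of exons, 0.00904 for the longest intron and -0.0395 for GC content; these are descriptions across genes that share 4 libraries. Among the 573 genes with the shortest transcripts (572 to 1595 bases) 19.0% were apart towards ASI1 RIP and 8.90% towards WT RIP, and among the 572 with the longest (2875 to 14494 bases) 32.5% and 3.67%. Genes apart towards ASI1 RIP had a median transcript length of 2309 bases, those apart towards WT RIP 1647 bases and those that overlapped 2083 bases. The 573 genes with the shortest transcripts held 15.2% and 14.0% of the counts outside rRNA in the ASI1 RIP libraries, against 21.5% and 23.7% in WT RIP, and the inputs differed less, at 18.5% in ASI1 and 22.0% in WT. Expected counts were not divided by length, so a longer transcript reaches a given count at a lower level, and the part of this in the trend was not tested.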

How the data were processed

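The authors deposited 1 table for each genotype with expected counts per gene (estimated read counts, which need not be whole) for 1 input and 2 RIP libraries, per the file headers. The CPM, log2 fold change, p-value and FDR columns that the authors deposited beside them, per the file headers, were not used for the results. STAR 2.6.0c, Salmon 0.10.2 and edgeR appear in the submitters' processing notes without roles; genome build and use of strand are not stated there. Each RIP library held between 119916 and 2566368 counts, 17.5% to 20.1% of them outside the 4 rRNA genes.

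The tables were joined on gene ID, and 100% of the IDs matched the TAIR10.1 RefSeq annotation, which gave names, coordinates and the printed sequences. After rounding to whole numbers, the expected counts went into edgeR 4.0.16 (quasi-likelihood, R 4.3.3, limma 3.58.1) on 2 against 2 libraries, with library sizes set to the counts outside rRNA, the default filter on low counts and Benjamini-Hochberg adjustment. Each SE given for edgeR was worked back from the log2 fold change and the F statistic of its test, and is not a fitted standard error. DESeq2 1.42.0 was an alternative, as were the scalings, filters and left-out libraries described in the closing section. The scripts were tested on simulated counts. Intervals of pooled shares (exact conditional binomial, 95%) and the limit of 3 counts for a listed 0 cover counting error only; reads had no molecular identifiers. Near-identical copies of 90 named genes were searched with blastn (at least 90% identity over 200 bases), and 17 had one. U1.5, at 165 bases, is shorter than this limit, so the search could not find copies of it.

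Named genes were all listed known targets and partners of ASI1, the 10 genes of smallest edgeR p in each direction among genes with no overlap and at least 20 counts in both libraries of the higher genotype, all calls, the 8 genes with the highest lowest level over the 4 RIP libraries, and up to 4 members of each list by mean level. The contrast, members and lists were chosen with earlier results of these data known. Tables and plots were made with Python 3.11.15, pandas 2.3.3, numpy 2.4.6, scipy 1.17.1 and matplotlib 3.10.9.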

Additional observations from a re-analysis of the deposited data

Results flagged for a closer look

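The input libraries, which the contrast does not use, differed between the genotypes for some of the genes named above. Each input is 1 library with few counts outside rRNA, so these ratios of ASI1 input over WT input have no replicate check. The ratio of shares outside rRNA was 6.04 for IBM1 (95% interval 1.38 to 36.2, counting error only), 2.47 for AT1G58602 (1.29 to 4.71) and 4.53 for AT1G58561 (2.37 to 8.96). It was 5.79 for AT4G16870 (3.81 to 8.95) and 4.14 for AT5G47480 (1.77 to 10.2). Among genes lower in ASI1 RIP than in WT RIP it was 2.59 for CA1 (1.52 to 4.40), 1.84 for AT3G54580 (1.51 to 2.25) and 3.40 for AT2G07687 (2.62 to 4.43). It was 3.45 for RPE (1.33 to 9.28), but below 1 for APE2 (0.305, 0.152 to 0.555) and RCA (0.335, 0.236 to 0.465). Ratios of other named genes lay on either side of 1 and are not all given here. No RIP value was flagged for a library far from its group, since groups of 2 allow no such check.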

How the results depend on the processing

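The counts of 0 genes called by edgeR in either direction stayed at 0 under the other scalings, filters, spread settings and the fit of all 6 libraries, which is no sign of stability at a coefficient of variation of 1.41 between replicates. Exceptions were the 4 lower calls of DESeq2 with its own size factors and the fits without a WT RIP library: leaving out 1 library gave between 0 and 91 higher calls (9 without WT RIP 1, 91 without WT RIP 2) and between 0 and 67 lower calls (9 and 67 without WT RIP 1 and WT RIP 2). In those fits 1 WT RIP library stands alone and is assumed to vary like the ASI1 RIP libraries. The median log2 fold change of all genes (0.91) was 0.31 with TMM scaling on the counts outside rRNA, 0.32 with TMM on all counts, 1.41 with counts of the shared genes only, 1.83 with no filter, 1.11 with at least 20 counts in 2 libraries, -0.14 with DESeq2's own size factors, 1.89 with all 6 libraries and 2.17 to 2.58 with 1 library left out; the cause was not tested, beyond the different numbers of genes kept. The 2 genes high in WT RIP and nearly absent from ASI1 RIP became 1 with a limit of 10 counts. The log2 fold of RPS10B ran from -7.91 to 0.84 with 1 library left out, and reversed to 0.84 without WT RIP 1, whose 163 counts carry the main value. The counts of genes apart stayed between 480 and 604 (higher) and 96 and 115 (lower) under the settings tried; the limit of 3 counts, the restriction to tested genes and the thinning to 23304 counts were added after seeing the data. Of 423 folds of 25 named genes under alternatives, 399 kept their direction and side of the threshold, 23 passed it and 1 reversed. Of 272 medians of 16 gene lists under alternatives, 94 moved by more than the SD between replicates of the log2 of the list sum, and 178 by less. The replicate numbers gave no sign of pairing (correlation of deviations -0.0232, 2 pairs), and with the replicate block edgeR called 0 genes in either direction, with a median of 0.85 and 4 genes at an unadjusted p under 0.05. Few libraries, their spread and the depth of WT RIP 1 limit all values.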
